A study of Mus musculus with 24 samples.

Results

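Amino acid transporter genes of the solute carrier families Slc1, Slc3, Slc6, Slc7, Slc36, Slc38 and Slc43 were examined in mouse kidneys after unilateral ureteral obstruction (UUO), the tying off of 1 ureter. A gene was included when its listed symbol began with 1 of these family names followed by the letter a and a number. This gave 46 of the 14407 genes listed, 45 of them transporters or transporter subunits, and the rule also took in Slc7a6os, a neighbour of Slc7a6 that is no transporter. Total RNA of whole left kidneys of wildtype mice was sequenced in 24 libraries, 4 in each of 6 groups. The groups were sham or UUO surgery, each with vehicle, with an early intervention or with a late intervention, and the intervention is istradefylline, an adenosine receptor antagonist, by the title of the series. The labels give neither the dose and timing of the drug, nor the days of obstruction, nor the sex, age and strain of the mice. Whether each of the 4 libraries per group came from its own mouse is not stated, so p-values measure only the spread between these libraries.

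In the kidney, filtered amino acids are taken back almost wholly by the proximal tubule. Transporters in the brush border, the membrane that faces the urine, bring them into the cell, and a different set in the basolateral membrane passes them on to the blood. Several of these carriers are pairs of a heavy chain, Slc3a1 or Slc3a2, which takes the complex to the membrane, and a light chain of the Slc7 family, which does the transport. Human mutations in SLC3A1 and SLC7A9 cause cystinuria, those in SLC7A7 lysinuric protein intolerance and those in SLC6A19 Hartnup disorder. Other members are carried by most cells, which use them to feed growth and protein synthesis or to sense amino acids in lysosomes. The 45 transporters were therefore sorted by textbook role into 9 of the brush border, 7 of the basolateral membrane, 20 that are widely expressed and 9 others. Members and roles were chosen with earlier results of these data known.

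Most brush border carriers were lower in UUO than in sham kidneys. Most of the widely expressed carriers tested were higher, as were 50.3% to 59% of all tested genes. The early and late interventions were accompanied by nearly no call within either surgery. Of the 46 genes, 39 passed the minimum of 1 FPKM (fragments scaled by gene length and library size) in at least 4 libraries and were tested with limma on log2(FPKM + 1), with p-values adjusted over all 13127 genes that passed and a threshold of 0.05. With vehicle, 13 of 39 were called higher in UUO (33.3%), where 50.3% of all tested genes were, and 15 of 39 were called lower (38.5%), where 16.7% of all tested genes were. With the early intervention, 13 members were higher (33.3%, all genes 54.7%) and 12 lower (30.8%, all genes 17.3%). With the late intervention, 14 members were higher (35.9%, all genes 59%) and 13 lower (33.3%, all genes 16.5%). These 3 comparisons share no libraries, and 12 members were called higher and 12 lower in all of them, 6 in some and 9 in none. In whole kidney RNA, fewer cells of a type and less RNA per cell cannot be told apart.

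The classes differed in direction, and as they were drawn up with earlier results known, this is a description and no test. Of the 9 brush border members, 7 were called lower in each of the 3 comparisons, and their median log2 change was -1.41 with vehicle, -1.61 with the early and -1.56 with the late intervention. Of the 6 basolateral members tested, 5, 3 and 4 were called lower and none higher, with medians of -0.96, -0.78 and -0.82. Of the 17 widely expressed members tested, 11, 12 and 11 were called higher and 2, 1 and 1 lower, with medians of 0.69, 1.04 and 1.06. The shares called higher were 64.7%, 70.6% and 64.7%, beside 50.3%, 54.7% and 59% of all tested genes. Slc38a1, Slc7a1, Slc7a2, Slc7a5 and Slc7a6 were under 1 FPKM in every sham library (at most 0.906). They passed the minimum only through UUO libraries, and all are among those called higher. The brush border Slc36a2, called higher with vehicle and late, also reached the minimum only with UUO libraries. The median over all tested genes was itself 0.32, 0.40 and 0.50, so the fall of the brush border genes was larger relative to the typical gene and the rise of the widely expressed ones smaller. Counts by separation of the same libraries gave the same division. All 12 UUO libraries lay below all 12 sham libraries for 12 of 39 members, as for 9.51% of all tested genes, and above them for 12 of 39, as for 35.1% of all tested genes. Those below were 7 brush border members, 3 basolateral, 1 widely expressed and 1 other, and those above were 11 widely expressed members and Slc7a6os. The 11 include the genes that passed the minimum only through UUO libraries, and the 1 other below, Slc6a4, passed it only through sham libraries.

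**Figure D1:**
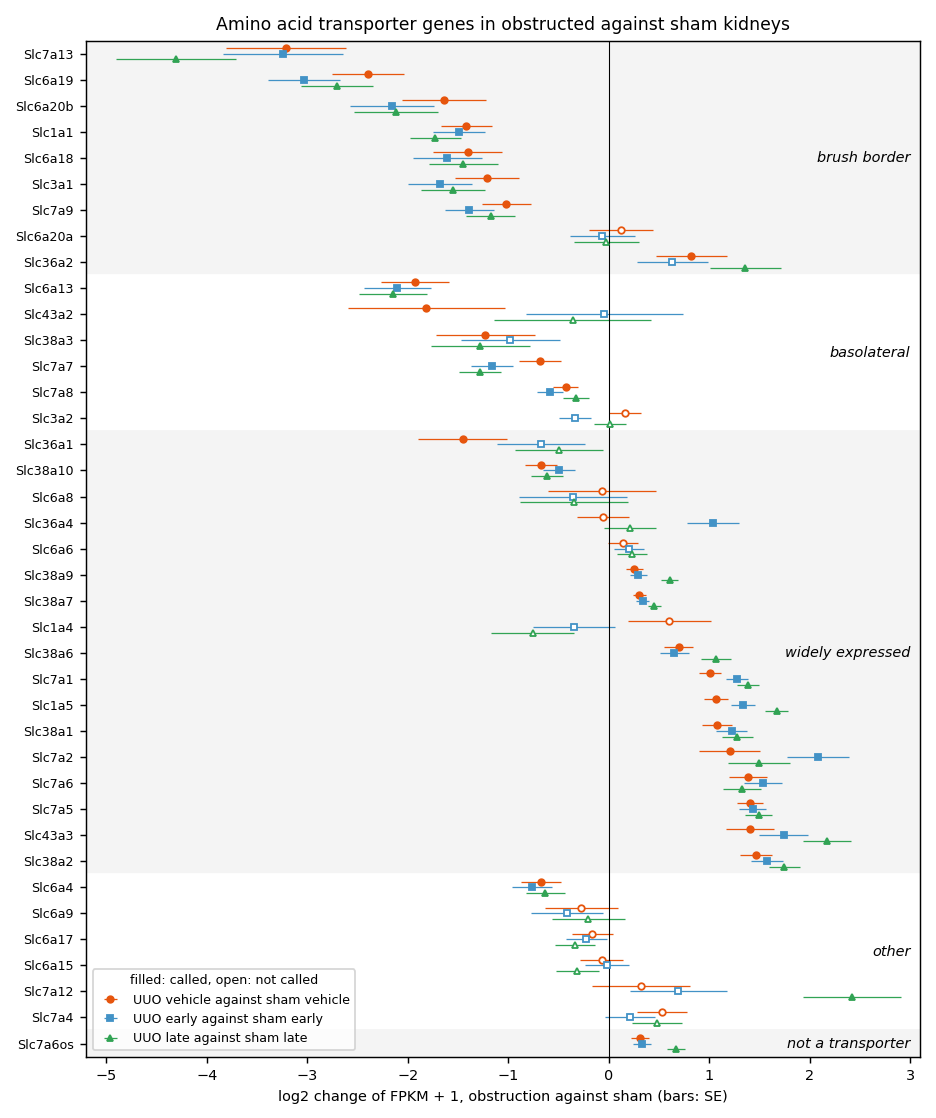
Log2 change of FPKM + 1 in UUO against sham kidneys (horizontal axis, bars are standard errors) for the 39 tested members, grouped by role, in the vehicle, early and late comparisons, with called changes filled and uncalled ones open. Of the brush border members, 7 of 9 lie below 0 and are called in all 3 comparisons, and 11 of 17 widely expressed members lie above 0 and are called in all 3.

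The shift of the typical gene depends on how libraries are scaled. Scaling FPKM by the median of ratios brought the all-gene median to 0.02, 0.03 and 0.03 and turned the member calls into 9 higher and 15 lower, 9 and 17, and 12 and 19, so that 37.5%, 34.6% and 38.7% of the called members were higher in place of 46.4%, 52% and 51.9%. Scaling every library to the same summed FPKM raised the median to 0.44, 0.55 and 0.69 and gave 14 members higher and 12 lower, 14 and 11, and 16 and 10. Under all 3 scalings and in all 3 comparisons, 8 members were called higher and 10 lower. The 8 were all widely expressed (Slc1a5, Slc38a1, Slc38a2, Slc43a3, Slc7a1, Slc7a2, Slc7a5 and Slc7a6). Of these, Slc38a1, Slc7a1, Slc7a2, Slc7a5 and Slc7a6 passed the minimum only through UUO libraries. The 10 were 7 of the brush border (Slc1a1, Slc3a1, Slc6a18, Slc6a19, Slc6a20b, Slc7a13 and Slc7a9), the basolateral Slc6a13 and Slc7a7, and Slc6a4, which passed the minimum only through sham libraries. Slc6a20a and Slc6a8 were called under none, and the other 19 tested members changed call with the scaling or between comparisons.

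Promoter sequences were looked at because the members, in roles assigned with earlier results known, divide by role. RefSeq promoters (GRCm38.p6, 250 bases before to 50 after the start) were at hand for 31 of the 46 genes. Short patterns were searched on both strands. The pattern CAAAGNNCA, a form of the site of HNF4, a transcription factor of proximal tubule and liver, was in 6.36% of 32851 promoters and in 4 of the 31. The pattern TGATGNAA, a form of the C/EBP-ATF element through which ATF4 acts in amino acid shortage, was in 3.97% of promoters and in 3 of the 31. TATAAA was in 13.6% and in 2 members, GGGCGG, the GC box, in 35.7% and in 20, and CACGTG, which reads the same on both strands, in 7.15% and in 3. The HNF4 and C/EBP-ATF matches overlapped no other match. Shown are 3 brush border genes with an HNF4 pattern, and 2 light chain genes of Slc3a2 with 2 C/EBP-ATF patterns each, 1 of which fell and 1 of which was too low to test. The set was chosen after the matches were seen. Capitals mark the matches, and each line reads 5′ to 3′ along the strand of its gene. The windows are chr17:85028097-85028396 (plus strand) for Slc3a1, chr7:35448842-35449141 (plus) for Slc7a9, chr9:123632489-123632788 (minus) for Slc6a20b, chr14:54417895-54418194 (minus) for Slc7a7 and chr3:50443564-50443863 (minus) for Slc7a11.
Slc3a1: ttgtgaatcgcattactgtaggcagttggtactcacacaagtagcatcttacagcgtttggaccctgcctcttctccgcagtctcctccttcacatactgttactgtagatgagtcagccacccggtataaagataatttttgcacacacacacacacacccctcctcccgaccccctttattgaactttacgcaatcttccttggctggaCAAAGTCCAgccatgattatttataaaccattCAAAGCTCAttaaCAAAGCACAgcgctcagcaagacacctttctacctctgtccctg
Slc7a9: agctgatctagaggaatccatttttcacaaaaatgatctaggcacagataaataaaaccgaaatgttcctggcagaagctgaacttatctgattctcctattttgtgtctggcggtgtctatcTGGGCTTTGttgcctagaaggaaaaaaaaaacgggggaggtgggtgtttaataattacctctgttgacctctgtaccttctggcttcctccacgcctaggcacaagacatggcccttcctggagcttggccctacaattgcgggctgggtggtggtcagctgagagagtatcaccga
Slc6a20b: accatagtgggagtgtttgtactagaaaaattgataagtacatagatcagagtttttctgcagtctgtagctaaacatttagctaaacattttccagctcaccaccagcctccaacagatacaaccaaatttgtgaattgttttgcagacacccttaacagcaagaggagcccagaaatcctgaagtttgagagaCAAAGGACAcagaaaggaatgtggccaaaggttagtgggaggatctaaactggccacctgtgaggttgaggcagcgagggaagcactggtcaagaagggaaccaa
Slc7a7: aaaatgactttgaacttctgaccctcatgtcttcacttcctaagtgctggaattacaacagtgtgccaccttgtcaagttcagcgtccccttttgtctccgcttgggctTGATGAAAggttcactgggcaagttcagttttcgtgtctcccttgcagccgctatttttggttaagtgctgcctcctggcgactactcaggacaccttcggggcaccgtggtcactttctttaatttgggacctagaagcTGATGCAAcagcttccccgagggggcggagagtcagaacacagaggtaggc
Slc7a11: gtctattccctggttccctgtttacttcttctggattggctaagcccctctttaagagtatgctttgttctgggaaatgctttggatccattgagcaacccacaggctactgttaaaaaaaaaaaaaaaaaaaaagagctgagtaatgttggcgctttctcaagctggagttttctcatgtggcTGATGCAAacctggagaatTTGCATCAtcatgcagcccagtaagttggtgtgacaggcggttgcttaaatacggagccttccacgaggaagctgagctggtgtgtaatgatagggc

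Counting the RefSeq start as 0, the Slc3a1 promoter held the HNF4 pattern 3 times, at -39 to -31, -7 to 1 and 6 to 14. Slc6a20b held it at -55 to -47, and Slc7a9 at -127 to -119 on the opposite strand, although the RefSeq start of Slc7a9 lies 296 bases inside its listed locus. The remaining member with the pattern was the basolateral Slc7a8, at -186 to -178 on the opposite strand. The C/EBP-ATF pattern lay at -66 to -59 and, on the opposite strand, at -47 to -40 of Slc7a11, at -141 to -134 and -1 to 6 of Slc7a7, and at -4 to 3 of Slc1a4 on the opposite strand. Counted inward from the edge of its listed locus, the RefSeq start of Slc7a7 lies at -164 bases, outside that locus. A match describes letters in a window and no binding was measured, and members without a match in these windows included genes that moved the same way.

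Libraries held an estimated 7780000 to 12850000 fragments. The first principal component carried 77.67% of the variance and separated the surgeries. UUO early 4 and UUO late 4 stood apart from the other UUO libraries, and the whole set of proximal tubule markers was lowest in them, with summed FPKM of 176.4 and 262.1. Leaving out both gave 13 members higher and 12 lower in the early comparison and 15 and 12 in the late one, against 13 and 12, and 14 and 13, with them.

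Among brush border carriers, Slc3a1 (rBAT), the heavy chain of the exchangers for cystine and basic amino acids, had a locus at chr17:85028347-85064243 of GRCm38 and the highest mean FPKM of all members in each UUO group. Its FPKM was 266, 272, 246 and 275 in the sham vehicle libraries, 303, 310, 282 and 262 in sham early and 288, 299, 305 and 289 in sham late. It was 128, 101, 122 and 106 with vehicle, 100, 122, 145 and 35.3 with the early and 118, 140, 126 and 47.5 with the late intervention in UUO kidneys. No UUO library reached any sham library, and the lowest 2 were UUO early 4 and UUO late 4. Slc3a1 fell by 1.21 on the log2 scale with vehicle (SE 0.32, limma adjusted p = 0.00221), by 1.68 with the early intervention (adjusted p = 8.27e-05) and by 1.56 with the late one (adjusted p = 0.000168).

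Slc7a13, a light chain partner of Slc3a1 in the last (S3) segment of the mouse proximal tubule, lay at chr4:19818725-19842218. Its FPKM was 311, 147, 235 and 295 with vehicle, 222, 306, 313 and 301 with the early and 279, 359, 349 and 332 with the late intervention in sham kidneys. It was 30.2, 10.8, 43.6 and 25.6 with vehicle, 41, 29.1, 89.5 and 6.14 with the early and 22, 23.3, 28.3 and 3.6 with the late intervention in UUO kidneys. The highest UUO value, in UUO early 3, was below the lowest sham value, in sham vehicle 2, and UUO late 4 was the lowest of all. It had the largest fall of any member, by 3.21 (SE 0.60, adjusted p = 8.44e-05), 3.24 (adjusted p = 6.24e-05) and 4.31 (adjusted p = 1.66e-06) on the log2 scale of FPKM + 1. Slc7a9, the light chain that carries cystine with Slc3a1 in the earlier segments, fell by 1.02 (SE 0.24, adjusted p = 0.000939), from 36.96 to 17.76 FPKM, with vehicle and by 1.39 and 1.18 with the interventions. Its listed transcripts summed to 10.8 to 36.5 FPKM in sham, where the gene table had 30.4 to 42.3. With transcript sums the early call was lost (-1.03, adjusted p = 0.0899).

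Slc6a18 and Slc6a19 are sodium-driven carriers of neutral amino acids, and in the kidney they need collectrin (Tmem27) as a partner. Slc6a18 FPKM was 73.1, 99.9, 71 and 101 in sham vehicle and 34, 28, 37.9 and 27.1 in UUO vehicle, and in libraries with an intervention it ran from 65.5 through a median of 67.8 to 84.8 in sham and from 8.28 through a median of 30.95 to 40.9 in UUO. Slc6a19 FPKM was 63.6, 26.3, 49.4 and 45.4 in sham vehicle and 9.54, 6.14, 7.74 and 7.09 in UUO vehicle, and with an intervention it ran from 38.6 through a median of 52.4 to 66.1 in sham and from 1.40 through a median of 7.16 to 11.3 in UUO. Sham and UUO libraries did not overlap for either gene. Slc6a18 fell by 1.41 (SE 0.34, adjusted p = 0.00125) with vehicle, and by 1.61 and 1.45 with the interventions. Slc6a19 fell by 2.40 (SE 0.36, adjusted p = 6.75e-06), 3.04 and 2.71. The ratio of Slc6a18 to Slc6a19 was 2.15 ± 1.19 (SD, n = 4) in sham vehicle and 4.21 ± 0.618 in UUO vehicle, with overlap in range (1.15 to 3.80 and 3.57 to 4.89). The Slc6a19 levels rest on the gene table, where sham libraries were at 26.3 or higher, while its 1 listed transcript had 0.157 to 21.9 FPKM in sham and 0.0267 to 12.1 in UUO, and the sum of listed transcripts gave a log2 change of 1.66 with vehicle that was not called (adjusted p = 0.125). With that sum neither the early (0.48, adjusted p = 0.666) nor the late difference (-1.11, adjusted p = 0.286) was called.

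Slc1a1, which takes up glutamate and aspartate, fell from 42.22 to 15.47 FPKM with vehicle, a log2 change of -1.42 (SE 0.26, adjusted p = 6.37e-05), and by 1.49 and 1.73 with the interventions. Slc6a20a and Slc6a20b are a pair of mouse copies of the proline (imino acid) carrier and lie 2205 bases apart on chromosome 9, so reads could be split between them and both values are uncertain. Slc6a20b fell from 26.37 to 8.05 FPKM, by 1.64 (SE 0.42, adjusted p = 0.00179) with vehicle and by 2.16 and 2.12 with the interventions. Slc6a20a was at 5.41 FPKM in sham vehicle and 6.83 in UUO vehicle, a log2 difference of 0.12 (95% interval -0.55 to 0.79, adjusted p = 0.758), and without UUO vehicle 4, at 1.41 FPKM where other UUO libraries had at least 5.97, the difference was 0.62 (adjusted p = 0.0100). Slc36a2, a proton-driven carrier of glycine and proline, was listed at 0 in all 4 sham late libraries. It was called higher in UUO with vehicle (mean 0.193 FPKM in sham, 1.13 in UUO, adjusted p = 0.0478) and late (0 in sham, 1.67 in UUO, adjusted p = 0.00180), and the vehicle call was lost without any one of sham vehicle 2, 3 or 4 or UUO vehicle 3 or 4 (adjusted p 0.0839 to 0.143) and with median-of-ratios scaling (0.106). The early difference of Slc36a2 was not called (0.63, adjusted p = 0.118), and without sham early 1, at 3.00 FPKM, it was 1.11 (adjusted p = 0.00131). The other sham libraries had at most 0.656 FPKM, so Slc36a2 passed the minimum only with UUO libraries.

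**Figure D2:**
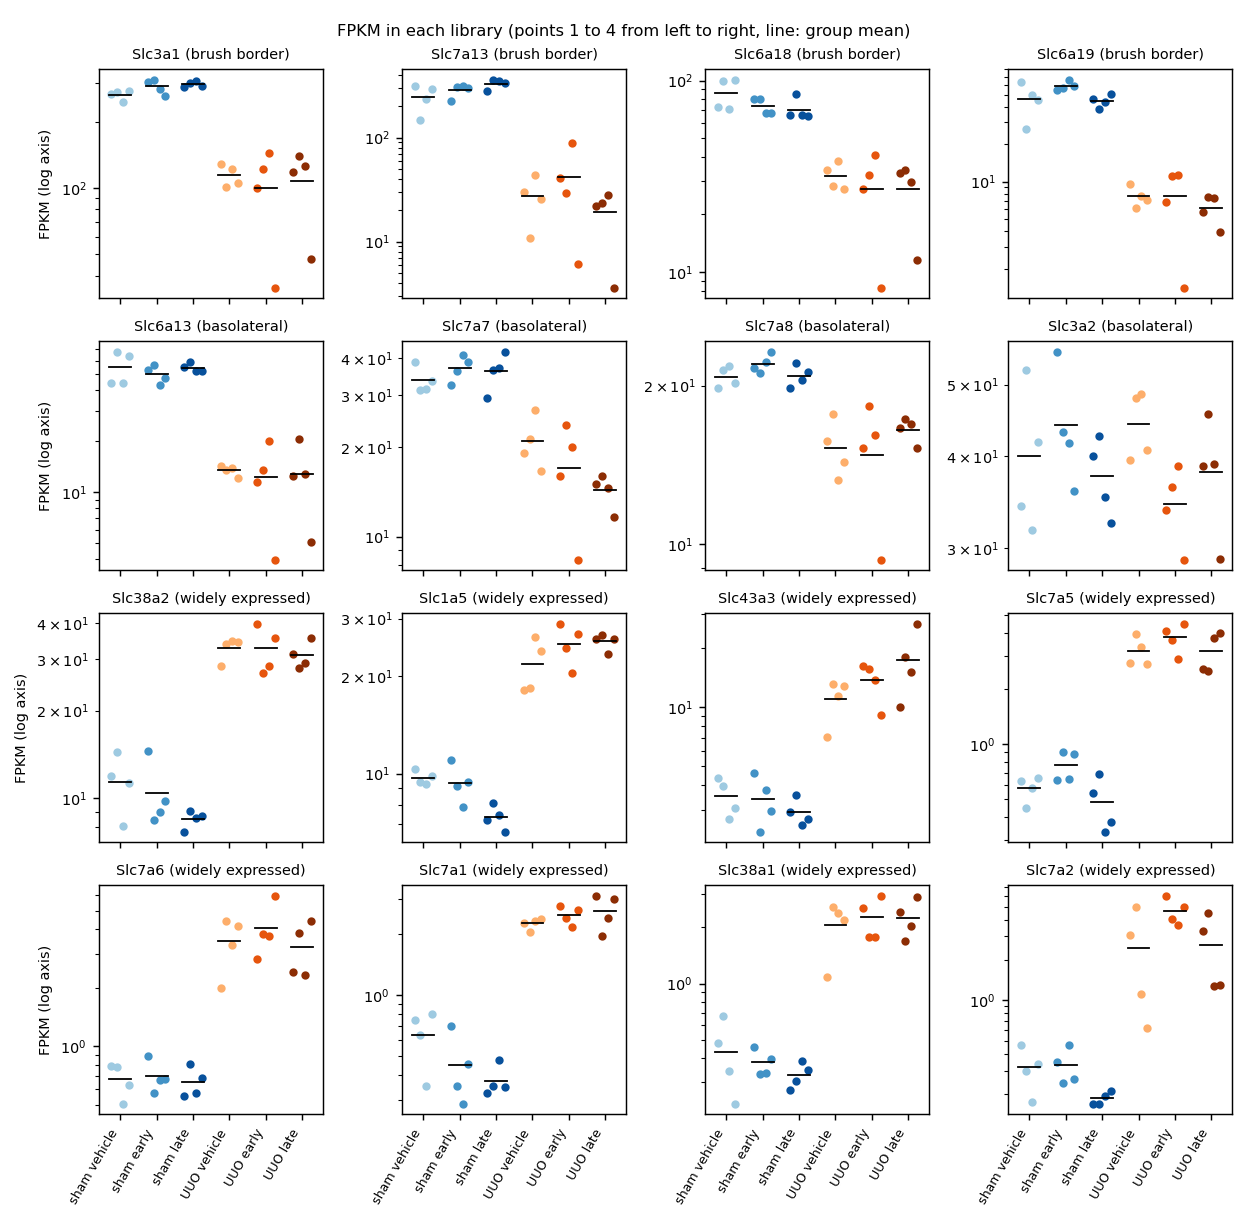
FPKM (log axis) of 16 members in each of the 24 libraries, points 1 to 4 of a group from left to right and a line at the group mean. Slc3a1, Slc7a13, Slc6a18, Slc6a19, Slc6a13 and Slc7a7 are lower in every UUO library than in every sham library, Slc38a2, Slc1a5, Slc43a3, Slc7a5, Slc7a6, Slc7a1, Slc38a1 and Slc7a2 are higher in every one, and Slc3a2 overlaps.

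Summed over the class, brush border FPKM was 652 to 907 in the 12 sham libraries and 77.5 to 355 in the 12 UUO libraries. The sum fell to its lowest values in UUO early 4 (77.5) and UUO late 4 (92.5), while the other UUO libraries had at least 190.7. The share of the summed FPKM of the 45 transporters that came from brush border genes was 69.2% ± 4.84 (SD, n = 4) with vehicle, 71.3% with the early and 72.0% with the late intervention in sham kidneys, against 43.04% ± 4.34, 39.8% and 37.9% in the UUO groups. Slc3a1 and Slc7a13 together made 46.9% ± 4.81 of it in sham vehicle and 26.5% ± 3.34 in UUO vehicle. The 45 transporters together were 0.297% to 0.350% of the listed FPKM of a sham library and 0.102% to 0.214% of a UUO library.

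**Figure D3:**
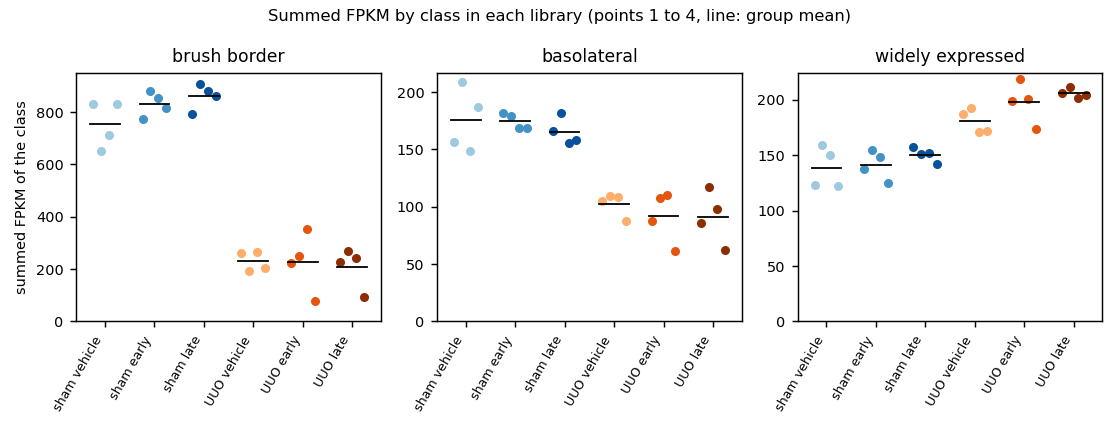
Summed FPKM (linear axis from 0) of the brush border, basolateral and widely expressed members in each library, points 1 to 4 of a group from left to right and a line at the group mean. Brush border sums are 652 to 907 in sham and 77.5 to 355 in UUO, basolateral sums 149 to 209 and 61.0 to 117, and widely expressed sums 123 to 159 and 171 to 219.

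At the basolateral side, Slc6a13, which carries GABA, taurine and betaine, had the largest fall. Its FPKM was 44.3, 67.7, 44 and 63.7 in sham vehicle and 14.2, 13.5, 13.8 and 12.2 in UUO vehicle, and with an intervention it ran from 43.3 through a median of 52.6 to 58.7 in sham and from 3.97 through a median of 12.7 to 20.7 in UUO. All UUO libraries lay below all sham libraries. The fall was by 1.93 (SE 0.34, adjusted p = 4.15e-05) with vehicle, 2.11 early and 2.15 late on the log2 scale. Its neighbour Slc6a12, the betaine carrier that renal cells use as osmolyte supply, lies 5343 bases away and was too low to test, at 0.312 to 2.64 FPKM in sham and 0 to 0.221 in UUO libraries, without overlap.

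Slc7a7 is the light chain that lets basic amino acids out to the blood. Its FPKM was 38.8, 31.3, 31.6 and 33.5 in sham vehicle and 19.1, 21.4, 26.7 and 16.6 in UUO vehicle, and with an intervention it ran from 29.4 through a median of 36.9 to 42.1 in sham and from 8.34 through a median of 15.5 to 23.8 in UUO. The ranges of sham and UUO did not meet, and UUO vehicle 3 was the highest UUO library. It fell by 0.68 (SE 0.21, adjusted p = 0.00717) with vehicle, 1.16 early and 1.28 late. Slc7a8, the light chain for neutral amino acids on the same membrane, fell less, from 20.81 to 15.26 FPKM with vehicle (log2 -0.43, SE 0.13, adjusted p = 0.00586), by 0.59 early and by 0.32 late (adjusted p = 0.0283), and with libraries scaled to the same sum the vehicle and late calls were lost (adjusted p = 0.0649 and 0.604). The late call was also lost without sham late 2, sham late 4 or UUO late 4 (adjusted p = 0.0661, 0.0525 and 0.0737).

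Slc3a2, the heavy chain shared by Slc7a5, Slc7a6, Slc7a7, Slc7a8 and Slc7a11, was the tested basolateral member without a call in the main fit. Its FPKM was 34.2, 52.4, 31.7 and 41.8 in sham vehicle and 39.5, 47.9, 48.6 and 40.7 in UUO vehicle, and with an intervention it ran from 32.4 through a median of 40.8 to 55.4 in sham and from 28.9 through a median of 37.5 to 45.6 in UUO. The surgeries overlapped throughout. The log2 difference was 0.16 with vehicle (95% interval -0.17 to 0.49, adjusted p = 0.384), -0.34 early (-0.67 to -0.01, adjusted p = 0.0623) and 0.01 late (-0.32 to 0.34), while with median-of-ratios scaling it was called lower early (-0.81) and late (-0.58). The early fall was also called with the replicate number as a block in the fit (-0.337, adjusted p = 0.0326). It was called too without sham early 4 (-0.427, adjusted p = 0.0291) or UUO early 3 (-0.395, adjusted p = 0.0455). Slc38a3, a glutamine carrier that feeds ammonia formation, had 11.8 FPKM in sham vehicle and 4.40 in UUO vehicle and was called lower with vehicle (log2 -1.23, SE 0.49, adjusted p = 0.0333) and late (-1.28, adjusted p = 0.0241) but not early (-0.98, adjusted p = 0.0810). Its vehicle call was lost without any one of sham vehicle 2 or 4 or UUO vehicle 2 or 4, the late call without UUO late 1 or UUO late 4, and both at the same summed FPKM.

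Slc43a2, a facilitated carrier of neutral amino acids, split into separate bands of libraries. Its FPKM was 12.6, 11.8, 12.9 and 13.8 with vehicle, 1.88, 13.3, 14.1 and 15.6 with the early and 11.5, 12.4, 1.4 and 0.836 with the late intervention in sham kidneys. It was 8.66, 7.49, 0.48 and 0.917 with vehicle, 7.35, 10.4, 9.05 and 8.6 with the early and 0.455, 10.2, 8.96 and 0.676 with the late intervention in UUO kidneys. In sham, 3 libraries had at most 1.88 and 9 had at least 11.5, and in UUO, 4 had at most 0.917 and 8 at least 7.35. The vehicle fall (log2 -1.82, SE 0.78, adjusted p = 0.0457) was lost without any one of the 4 sham vehicle libraries, UUO vehicle 3 or UUO vehicle 4 (adjusted p 0.0666 to 0.155), and the early (-0.04) and late (-0.36) differences were not called.

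Most of the increases were in widely expressed members. Slc38a2, a sodium-coupled carrier of small neutral amino acids that cells induce when amino acids run short, had the largest in the vehicle comparison on the log2(FPKM + 1) scale, on which lower genes such as Slc7a2 and Slc7a5 count for less. Its FPKM was 11.9, 14.4, 8.05 and 11.3 in sham vehicle and 28.4, 33.8, 34.7 and 34.5 in UUO vehicle, and with an intervention it ran from 7.68 through a median of 8.84 to 14.5 in sham and from 27.0 through a median of 30.2 to 39.7 in UUO. Every UUO library exceeded every sham library. Slc38a2 rose by 1.47 on the log2 scale with vehicle (SE 0.16, adjusted p = 1.02e-07), 1.57 early and 1.75 late.

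Slc43a3, which in human cells carries purine nucleobases, lay at chr2:84936579-84958509. Its FPKM was 4.35, 3.97, 2.69 and 3.05 in sham vehicle and 7.06, 13.1, 11.4 and 12.8 in UUO vehicle, and with an intervention it ran from 2.31 through a median of 2.94 to 4.60 in sham and from 9.16 through a median of 15.4 to 26.7 in UUO. The surgeries did not overlap, and UUO late 4 was the highest library. Slc43a3 rose by 1.41 (SE 0.24, adjusted p = 3.41e-05) with vehicle, 1.74 early and 2.17 late.

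Slc7a5, the light chain for large neutral amino acids such as leucine, lay at chr8:121881150-121907694. Its FPKM was 0.627, 0.447, 0.577 and 0.657 with vehicle, 0.634, 0.906, 0.647 and 0.888 with the early and 0.539, 0.688, 0.333 and 0.379 with the late intervention in sham kidneys. It was 2.74, 3.95, 3.38 and 2.71 with vehicle, 4.09, 3.68, 2.9 and 4.5 with the early and 2.57, 2.49, 3.79 and 4 with the late intervention in UUO kidneys. No sham library reached 1 FPKM and no UUO library was under 2.49. Slc7a5 rose by 1.40 (SE 0.13, adjusted p = 1.40e-08), 1.43 and 1.49, the smallest adjusted p of any member in the vehicle comparison. Because 1 is added before the log, these values understate the change of genes at this level.

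Slc7a6, a light chain that exchanges basic for neutral amino acids much as Slc7a7 does, had FPKM of 0.791, 0.781, 0.505 and 0.632 in sham vehicle and 1.99, 4.44, 3.33 and 4.15 in UUO vehicle, and with an intervention it ran from 0.556 through a median of 0.673 to 0.896 in sham and from 2.32 through a median of 3.73 to 5.95 in UUO. Sham and UUO did not overlap. It rose by 1.38 (SE 0.19, adjusted p = 2.04e-06), 1.54 and 1.33. Slc7a6os lies 2011 bases from it on the opposite strand and was called higher by 0.31, 0.33 and 0.67, and whether the counting used strand is not given in the sources used here.

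Of the cationic amino acid carriers, Slc7a1 rose by 1.00 (SE 0.11, adjusted p = 1.30e-07), 1.27 and 1.38, from 0.635 to 2.26 FPKM with vehicle. Slc7a2, the arginine carrier that activated macrophages also use, rose by 1.20 (SE 0.31, adjusted p = 0.00172), 2.08 and 1.49, from 0.318 to 2.45 FPKM with vehicle. Slc38a1, a close relative of Slc38a2, rose by 1.08 (SE 0.15, adjusted p = 3.62e-06), 1.22 and 1.28. Slc1a5, the glutamine and neutral amino acid exchanger of dividing cells, rose from 9.71 to 21.68 FPKM, by 1.07 (SE 0.12, adjusted p = 1.30e-07), 1.33 and 1.67. All 12 UUO libraries were above all 12 sham libraries for each of these 4 genes.

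Smaller increases were found for Slc38a6, by 0.69 (SE 0.15, adjusted p = 0.000312), 0.65 and 1.06, of which the early one was lost with median-of-ratios scaling (0.30, adjusted p = 0.0567). The lysosomal glutamine carrier Slc38a7 rose by 0.30, 0.34 and 0.45, which is about the shift of the typical gene, and with median-of-ratios scaling its differences were -0.03, -0.07 and -0.07 and not called. Slc38a9, the lysosomal arginine sensor upstream of mTORC1, had FPKM of 1.29, 1.19, 1.12 and 1.16 with vehicle, 1.04, 0.841, 1.05 and 1.11 with the early and 0.612, 0.729, 0.768 and 0.783 with the late intervention in sham kidneys. It had 1.54, 1.64, 1.47 and 1.79 with vehicle, 1.79, 1.31, 1.41 and 1.35 with the early and 2.06, 1.35, 1.46 and 1.66 with the late intervention in UUO kidneys. Every UUO library was above every sham library, and sham late was the lowest group. The rise was by 0.25 (SE 0.08, adjusted p = 0.0131), 0.29 and 0.61, and with median-of-ratios scaling only the late one was called (0.29, adjusted p = 0.00241).

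Not every widely expressed member rose. Slc38a10 FPKM was 22.9, 22.6, 25.3 and 20.9 in sham vehicle and 14.5, 22.3, 10.5 and 11 in UUO vehicle, and with an intervention it ran from 21.1 through a median of 22.7 to 26.9 in sham and from 12.8 through a median of 15.9 to 19.1 in UUO. With vehicle, UUO vehicle 2 lay among the sham values, while with an intervention the surgeries were apart. Slc38a10 fell by 0.68 (SE 0.16, adjusted p = 0.000882), 0.50 and 0.62, and with libraries at the same sum the early and late calls were lost (adjusted p = 0.0946 and 0.0552).

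Slc6a6, the taurine carrier, had FPKM of 26.5, 37, 30.7 and 27.9 in sham vehicle and 37.9, 39.3, 30.2 and 27.7 in UUO vehicle, and with an intervention it ran from 28.5 through a median of 34.9 to 36.4 in sham and from 29.4 through a median of 37.8 to 48.0 in UUO. The surgeries overlapped, and the log2 differences were 0.14 (95% interval -0.17 to 0.45, adjusted p = 0.430), 0.20 and 0.23. The direction of Slc6a6 turned to -0.24, -0.26 and -0.36 with median-of-ratios scaling, called lower in the late comparison (adjusted p = 0.0246), and with libraries at the same sum it was called higher early (0.38) and late (0.48).

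Slc6a8, the creatine carrier, had FPKM of 11.4, 35.3, 43.3 and 11.3 in sham vehicle and 36.6, 13.7, 11.5 and 28.3 in UUO vehicle, and with an intervention it ran from 11.3 through a median of 41.1 to 43.3 in sham and from 7.19 through a median of 33.8 to 38.6 in UUO. High and low libraries occurred under both surgeries, and the differences were -0.07 (95% interval -1.19 to 1.05, adjusted p = 0.916), -0.36 and -0.34. With the late intervention the surgeries were apart (38.1 to 41.9 FPKM in sham and 24.8 to 35.6 in UUO), and Slc6a8 was called lower there in the compared groups alone (adjusted p = 0.0241) and with transcript sums (-1.77, adjusted p = 0.0388). Slc36a1, a proton-coupled carrier of lysosomes, was called lower with vehicle, from 15.95 to 7.31 FPKM (log2 -1.45, SE 0.44, adjusted p = 0.00634). UUO vehicle 4 held 0.184 FPKM where other UUO libraries had at least 7.48, and in a fit of the vehicle groups alone the call was lost (adjusted p = 0.0826). The early and late differences of Slc36a1 were -0.68 and -0.49 and not called, although all UUO libraries lay below the sham libraries in both. They were called lower in fits of the compared groups alone (adjusted p = 0.000494 and 0.00261) and with median-of-ratios scaling (adjusted p = 0.0238 and 0.0318).

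Slc1a4, a carrier of alanine, serine and cysteine, was not called, with differences of 0.60, -0.35 and -0.76. All UUO late libraries lay below all sham late libraries, and the late difference was called lower with median-of-ratios scaling (-1.29, adjusted p = 0.0103) and in the compared groups alone (adjusted p = 0.035). Sham vehicle 3 held 0.83 FPKM where the other sham libraries had at least 7.39. Its transcript Slc1a4-201 was listed at 0 in 2 sham and 5 UUO libraries, while Slc1a4-202 was at 0.83 to 9.69 FPKM in those 7 libraries and at 0.00327 to 1.34 in the others. Slc36a4 was called higher with the early intervention (log2 1.04, SE 0.26, adjusted p = 0.00122) but not with vehicle (-0.06) or late (0.21), and the test of the difference between the early and vehicle changes did not call it (1.10, adjusted p = 0.865).

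**Figure D4:**
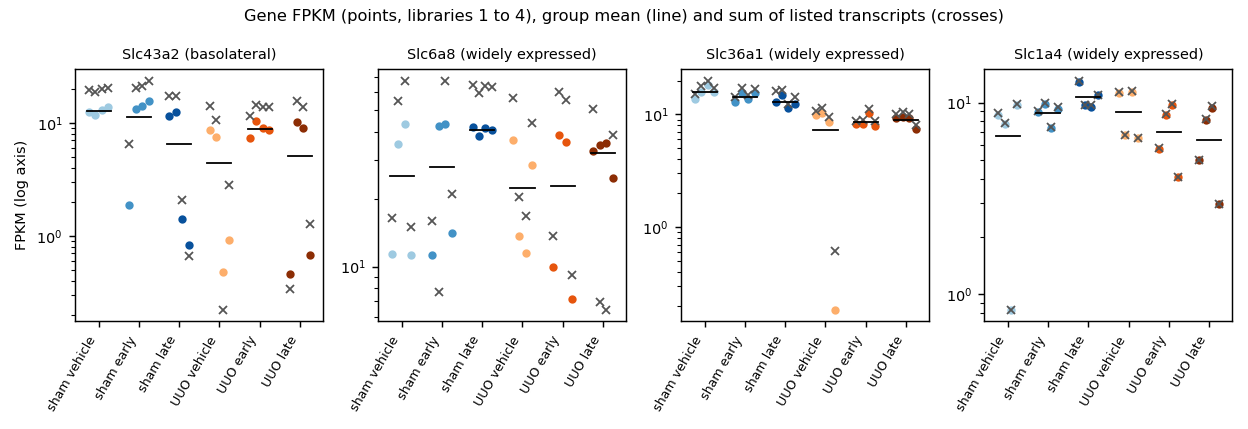
Gene FPKM (log axis) of Slc43a2, Slc6a8, Slc36a1 and Slc1a4 in each library (points 1 to 4 of a group, line at the group mean) with the sum of their listed transcripts (crosses). Slc43a2 has 3 sham libraries at or under 1.88 and 4 UUO libraries at or under 0.917 below a band of higher ones, Slc36a1 has 1 UUO library at 0.184 and Slc1a4 has 1 sham library at 0.83.

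Among members of other roles, Slc6a4, the serotonin carrier, fell by 0.68 (adjusted p = 0.00467), 0.76 and 0.63, from 1.69 to 0.608 FPKM with vehicle, and all 12 UUO libraries lay below all sham libraries. Slc6a9, a glycine carrier, had FPKM of 6.81, 3.34, 8.05 and 6.13 in sham vehicle and 8.8, 6.45, 5.16 and 1.28 in UUO vehicle, and with an intervention it ran from 5.66 through a median of 8.22 to 9.21 in sham and from 2.08 through a median of 6.51 to 10.1 in UUO. Slc6a15, a carrier of neutral amino acids, had 5.94, 3.21, 4.45 and 5.68 and 6.99, 4.38, 4.37 and 2.81, and with an intervention it ran from 2.74 through a median of 4.47 to 5.39 in sham and from 2.35 through a median of 3.93 to 5.61 in UUO. Both overlapped between surgeries and neither was called, with vehicle differences of -0.27 and -0.07.

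Slc7a12 had FPKM of 1.88, 10.2, 0.307 and 4.49 with vehicle, 1.24, 3.27, 2.53 and 1.32 with the early and 0.0575, 0.793, 0.533 and 0.623 with the late intervention in sham kidneys. It had 4.77, 4.64, 2.07 and 4.67 with vehicle, 4.63, 5.38, 4.5 and 1.7 with the early and 14.3, 9.1, 4.09 and 3.86 with the late intervention in UUO kidneys. The sham vehicle libraries ranged above and below the UUO vehicle ones, while all sham late libraries were under 1 and all UUO late libraries over 3.8. Slc7a12 was called higher in the late comparison alone (log2 2.42, SE 0.49, adjusted p = 0.000143), with 0.32 for vehicle and 0.69 early, and the test of the difference between the late and vehicle changes did not call it (2.09, SE 0.69, adjusted p = 0.181). Slc6a17 (-0.16, -0.22 and -0.34) and Slc7a4 (0.53, 0.21 and 0.48) were not called in any of the 3 comparisons. With median-of-ratios scaling Slc6a17 was called lower early and late (adjusted p = 0.0311 and 0.00697). Slc7a4 was called higher with vehicle and late at the same summed FPKM (adjusted p = 0.032 and 0.0214), late in the compared groups alone (0.00673), and with vehicle under the replicate block (0.0479) or without UUO vehicle 4 (0.78, adjusted p = 0.00651), sham vehicle 1 (0.0493) or sham vehicle 4 (0.0487).

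The 7 members below the minimum are given as ranges without a test. Of them, 3 had no overlap with higher values in UUO. The lowest highest-group mean in the gene table was 0.5002, and only UUO groups of these 3 had means above it. They are thus listed through their UUO values, which favours such a separation, and no share over all genes is given beside it. Slc7a11, the cystine and glutamate exchanger whose product feeds glutathione, was listed at 0 to 0.0408 FPKM in sham and 0.124 to 2.11 in UUO. Slc7a3, a cationic amino acid carrier, had 0 to 0.166 and 0.189 to 0.738, and Slc43a1, a relative of Slc43a2, had 0.0398 to 0.233 and 0.350 to 1.99. Slc38a4 (0.115 to 0.562 and 0.262 to 1.92), the glutamate carrier Slc1a2 (0.292 to 0.525 and 0.103 to 0.877) and Slc7a10 (0.0333 to 0.449 and 0.0514 to 1.49) overlapped. Slc6a12 is described above, and of its groups only those of sham had means above that level.

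The light chains did not all keep their proportion to the heavy chain. With vehicle, the ratio of Slc7a9 plus Slc7a13 to Slc3a1 was 1.08 ± 0.278 (SD, n = 4) in sham and 0.392 ± 0.0969 in UUO, and the ranges of 0.681 to 1.32 and 0.279 to 0.516 did not meet. With the interventions it was 1.13 and 1.23 in sham and 0.520 and 0.304 in UUO, and 1 UUO early library (0.763) lay above the lowest sham vehicle library. The ratio of Slc7a9 alone to Slc3a1 was 0.140 ± 0.0146 in sham vehicle and 0.156 ± 0.0137 in UUO vehicle, within overlapping ranges. The ratio of Slc7a13 to Slc7a9 was 6.74 ± 2.14 in sham vehicle and 1.54 ± 0.676 in UUO vehicle. Markers of the S3 segment, where Slc7a13 is found, moved with it: the summed FPKM of 3 genes was 170.0 to 513 in sham and 12.3 to 102 in UUO, and their part in the ratio was not tested.

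For the partners of Slc3a2, the summed FPKM of Slc7a7 and Slc7a8 was 54.6 ± 2.70 in sham vehicle and 36.2 ± 4.17 in UUO vehicle, and that of Slc7a5, Slc7a6 and Slc7a11 was 1.26 ± 0.140 and 6.93 ± 1.52. The latter 3 made 2.25% ± 0.174 of the 5 light chains with vehicle, 2.45% with the early and 1.99% with the late intervention in sham kidneys. They made 16.1% ± 2.97 with vehicle, 22.9% ± 12.6 with the early and 18.1% ± 5.06 with the late intervention in UUO kidneys, with UUO early 4 at 41.6%. The highest sham library had 2.78% and the lowest UUO library 12.4%. Slc7a5 and Slc7a6 passed the minimum, and Slc7a11 was listed, only through UUO values, which favours such a gap. The ratio of Slc7a7 to Slc7a6, which exchange the same substrates, was 51.2 ± 9.32 in sham vehicle and 6.61 ± 2.64 in UUO vehicle. All ratios are of FPKM, which is scaled by gene length, and are given without a test.

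**Figure D5:**
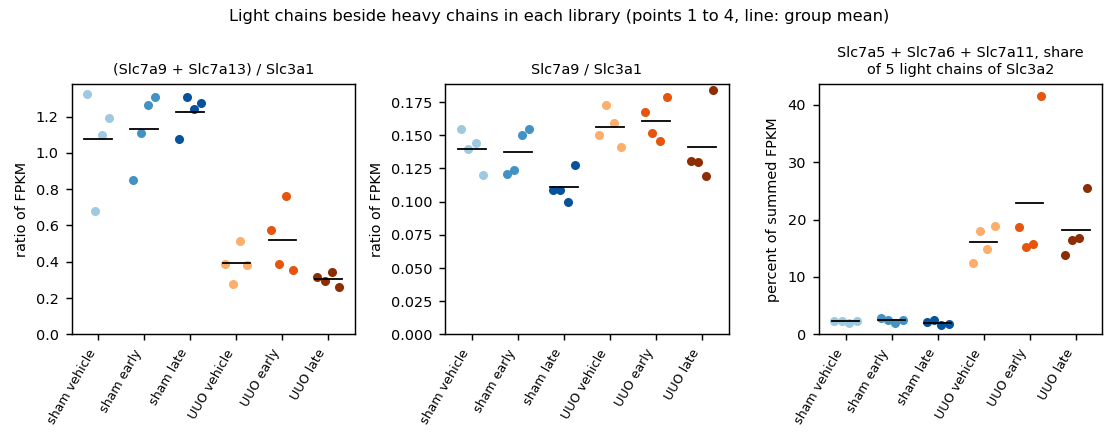
Ratio of FPKM of light chains to the heavy chain Slc3a1 (left and middle) and percent of the summed FPKM of the 5 light chains of Slc3a2 that came from Slc7a5, Slc7a6 and Slc7a11 (right) in each library, points 1 to 4 of a group and a line at the group mean, all axes from 0. The left ratio falls from a mean of 1.08 to 0.392 with vehicle, the middle one is 0.140 and 0.156, and the share on the right is 2.25% and 16.1%.

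Members that neighbour each other in the genome did not always move together. The adjacent Slc6a18 and Slc6a19 (1722 bases apart on chromosome 13) both fell, and Slc38a2 and Slc38a1 (44481 bases apart on chromosome 15) both rose. Slc6a13 fell, and Slc6a12, 5343 bases away, was too low to test and lower in UUO without overlap. Slc7a6 and Slc7a6os (2011 bases apart) both rose, although Slc7a6os was not called with median-of-ratios scaling. Slc6a20b fell while Slc6a20a was not called. Slc36a2 and Slc36a1 (19273 bases apart on chromosome 11, on opposite strands) were called in opposite directions with vehicle. Both of these calls were lost under some alternatives given above. Slc43a3 rose and Slc43a1, 72985 bases away on chromosome 2, was too low to test.

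Genes that work with the members were read from 4 lists in the same fit. Each list is shown with the 2 genes (1 for ammonia formation) that had its smallest vehicle p, given with their FPKM, and the other genes named were chosen after their values were seen. Among all tested genes 50.3%, 54.7% and 59% were called higher and 16.7%, 17.3% and 16.5% lower in the vehicle, early and late comparisons. Of 6 partner and accessory genes tested, 5 were called lower with vehicle, 5 early and 3 late, and none higher. Those with the smallest p were Slc15a2, a peptide carrier (15.1 to 6.59 FPKM, log2 -1.11, adjusted p = 0.000441), and Pdzk1, a brush border scaffold (339.9 to 119 FPKM, log2 -1.53, adjusted p = 0.000665). Slc9a3r1, a scaffold, fell in all 3 comparisons, and Slc16a10, a carrier of aromatic amino acids, with vehicle and early. Tmem27, the partner of Slc6a18 and Slc6a19, fell from 683 to 323 FPKM (adjusted p = 0.00453).

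Of 15 genes of the amino acid response, the program that ATF4 drives when amino acids are short, 8, 9 and 8 were called higher and 2, 3 and 2 lower (Cth in all, Vldlr with vehicle and early, Sesn2 early and late), with medians of 0.36, 0.55 and 0.46 beside the all-gene medians of 0.32, 0.40 and 0.50. Eif4ebp1, an inhibitor of translation, rose from 8.09 to 29.8 FPKM with vehicle (adjusted p = 2.50e-11), and Asns, asparagine synthetase, from 1.49 to 7.85 (adjusted p = 4.07e-10). Trib3, called higher in each comparison, had sham group means of at most 0.631 FPKM and reached the minimum only with UUO libraries. Of 6 genes of the response to tonicity, 0, 2 and 2 were higher (Nfat5 and Hspa4l early, Hspa1b and Hspa4l late) and 1, 0 and 0 lower, and the inositol carrier Slc5a3 fell from 10.1 to 6.25 with vehicle (adjusted p = 0.0325), while the chaperone Hspa4l had 2.64 and 3.25 FPKM (adjusted p = 0.0574). Of 6 genes of ammonia formation and bicarbonate transport, 1 was higher and 5 were lower in each comparison. Ogdh, of the citric acid cycle, fell from 106.9 to 55.9 FPKM with vehicle (adjusted p = 4.74e-06), with Glud1, Pck1, Slc4a4 and Slc9a3 also lower in each.

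Markers of the cells in a kidney moved along with the members. Proximal tubule markers, which mark the cells that hold the brush border and basolateral carriers, were called lower for 8 of 9 (all but Slc5a12), 9 of 9 and 9 of 9 genes, with Lrp2 (megalin) at 74.4 and 20.9 FPKM in the vehicle groups. Their summed FPKM was 1918 to 2677 in sham and 176.4 to 1159 in UUO. S3 markers were lower for 3 of 3 in each comparison, Cyp7b1 at 126.6 and 19.1 and Slc22a13 at 58.1 and 7.53. Their median log2 changes were -1.41, -1.88 and -1.91 for the proximal tubule and -2.85, -2.86 and -3.48 for S3, beside -1.41, -1.61 and -1.56 for the brush border members. Markers of the loop of Henle were lower for 2 of 3 in each comparison (Slc12a1 and Umod, with Cldn16 higher early and late), of the distal convoluted tubule for 3, 2 and 3 of 3, and of principal cells for 4, 4 and 3 of 4 (Aqp2 and Avpr2). Of the distal markers, Slc12a3 and Calb1 were lower in all 3 comparisons and Pvalb with vehicle and late. The summed distal markers were at 732.7 FPKM in UUO early 4 and at 8.04 to 55.2 in the other UUO libraries, beside 106.2 to 161.8 in sham. Pvalb alone made most of the sum in UUO early 4. Its mean in UUO early was 193.2 FPKM (SD 354.5), beside 13.85 (SD 7.105) for Slc12a3 and 8.208 (SD 4.073) for Calb1.

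Most markers of fibroblasts, macrophages, T cells and dividing cells were higher. Fibroblast markers were higher for 7 of 7 genes in each comparison (Col3a1 and Thy1), with sums of 16.8 to 43.8 FPKM in sham and 214 to 795 in UUO. Macrophage markers were higher for 7 of 8 in each (C1qa at 14.4 and 327, Adgre1 at 0.568 and 16.9), with Mertk called lower with vehicle, and with sums of 51.0 to 75.5 and 961 to 3365. T cell markers were higher for 6, 5 and 6 of 6 (Cd3d and Cd4), and markers of dividing cells for 4 of 4 (Ccna2 and Top2a). Sham group means were at most 0.432 FPKM for the T cell markers and at most 1.13 for those of dividing cells. They were at most 0.592 for the fibroblast markers Thy1 and Postn and the macrophage markers Itgam and Adgre1. All of these genes reached the minimum only with UUO libraries, which favours a call of higher. Endothelial markers were higher for 2, 3 and 4 of 5 (Cdh5 and Pecam1), with Kdr called lower with vehicle, and podocyte markers for 1, 4 and 4 of 4 (Synpo), with vehicle medians of 0.23 and -0.06 beside the all-gene median of 0.32. No marker was at 0 throughout, and those listed at 0 in some libraries were Itgam, Cd3e, Cd3g, Cd4, Cd5 and Pvalb. The part of these cell types in the changes of the members was not tested.

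The interventions were accompanied by almost no call among the members. The comparisons with vehicle share the vehicle libraries. In UUO kidneys, 0 of 39 members were called in early against vehicle (0.0152% of all genes called), 0 in late against vehicle (0.137%) and 0 in early against late (0.0305%). At an unadjusted limma p under 0.05 there were 4 members (Slc36a4, Slc7a2, Slc38a7 and Slc3a2), 2 (Slc7a7 and Slc43a3) and 3 (Slc38a7, Slc36a4 and Slc7a2). In sham kidneys, 0 were called in early against vehicle (0.00762%, with 2 at an unadjusted p under 0.05) and 1 in late against vehicle (1.42%, with 7). The test of whether the early intervention differed in effect between surgeries called 0 (0.00762%, with 2 unadjusted) and that of the late intervention 0 (0.0305%, with 7 unadjusted).

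The 1 member called was Slc38a9, lower in sham late (mean 0.723 FPKM) than in sham vehicle (1.19), with a log2 change of -0.35 (SE 0.08, adjusted p = 0.0454). All 4 sham late libraries lay below all 4 sham vehicle libraries. Without any one of the 8 libraries the call was lost, with adjusted p between 0.0629 and 0.110. In the same comparison 2 of 4 podocyte and 1 of 5 endothelial markers were called lower (medians -0.63 and -0.55) and none of the other marker lists had a call, and their part in the change of Slc38a9 was not tested.

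The member nearest to a call in UUO was Slc36a4. Its FPKM was 0.425, 2.36, 0.672 and 0.54 with vehicle, 2.91, 2.75, 2.6 and 3.88 with the early and 0.575, 1.51, 2.94 and 0.457 with the late intervention in UUO kidneys. All UUO early libraries were above all UUO vehicle libraries, of which UUO vehicle 2 was well above the other 3. The log2 difference of UUO early to UUO vehicle was 1.10 (SE 0.26, adjusted p = 0.276), and without UUO vehicle 2 it was 1.38 (adjusted p = 0.0269). Slc7a2 had 4.67 FPKM in UUO early and 2.45 in UUO vehicle (log2 0.89, 95% interval 0.25 to 1.52, adjusted p = 0.451).

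Intervals of the differences between intervention and vehicle in UUO are given for a few carriers chosen after their values were seen. In UUO early against UUO vehicle they were -1.01 to 0.32 for Slc3a1, -1.02 to 1.47 for Slc7a13, -0.98 to 0.51 for Slc6a19 and -0.08 to 0.47 for Slc7a5 on the log2 scale. In UUO late against UUO vehicle they were -0.85 to 0.48, -1.88 to 0.61, -1.04 to 0.45 and -0.28 to 0.27. The interaction of the late intervention with surgery with the smallest p was that of Slc1a5 (0.60, SE 0.17, adjusted p = 0.120), which had 9.71 and 7.34 FPKM in sham vehicle and sham late and 21.7 and 25.5 in UUO vehicle and UUO late.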

How the data were processed

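Left kidneys of wildtype mice were sequenced in 24 libraries, 4 per group, from total RNA with a stranded kit, per the labels' protocols. Per the submitters' processing notes, cutadapt, HISAT2 and StringTie were used with GRCm38, with no versions or strand settings in the sources used here. The deposited tables hold FPKM per gene and per transcript, so library depth was estimated from transcript lengths and values rather than read. The lowest highest-group mean in the gene table was 0.5002, so genes under about that level in all groups were not analysed here.

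The 13127 of 14407 genes that reached 1 FPKM in 4 or more libraries were fitted on log2(FPKM + 1) with limma 3.58.1 in R 4.3.3, with a mean per group, a mean-variance trend, 18 residual degrees of freedom and two-sided tests. P-values were adjusted by the Benjamini-Hochberg method over all tested genes of a comparison, and calls are at 0.05. Members, roles, companion lists and markers were chosen with earlier results of these data known. Values are given per library for the 3 highest members of each role in sham vehicle, the 4 largest called changes each way with vehicle and members called between interventions, and other members were named for completeness. Alternatives were another pseudocount (0.1), filters, scalings, no trend, compared groups alone, a replicate block, transcript sums and leaving out libraries. The fit was tested on simulated data. No library pair was identical, and the highest pairwise correlation was 0.988. Same-numbered libraries were not linked by the labels, and the numbers were not taken as pairs. Listed loci matched GENCODE M21 for 42 of the 46 members. FPKM gives no counts, so no counting interval was given. Some genes of the companion and marker lists are counted but not named, and 1 searched promoter pattern is not reported here.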

Additional observations from a re-analysis of the deposited data

Results flagged for a closer look

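In 234 groups of 4 libraries (39 tested members in 6 groups), the highest or lowest library stood apart by Dixon's criterion in 15, and chance flags about 1 in 20 groups. Sham early 1 accounted for 5 of them. It had 222 FPKM of Slc7a13 where the other 3 libraries had 301 to 313, 22.9 of Slc6a20b (others 32.6 to 33.3), 3 of Slc36a2 (others 0 to 0.0987), 1.88 of Slc43a2 (others 13.3 to 15.6) and 26.9 of Slc38a10 (others 22.6 to 22.8).

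In the other sham libraries, sham late 2 had 84.8 of Slc6a18 (others 65.5 to 66.0), sham late 4 had 28.5 of Slc6a6 (others 35.4 to 36.4) and sham vehicle 2 had 3.44 of Slc6a4 (others 1.05 to 1.16).

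In UUO vehicle, library 1 had 28.4 of Slc38a2 (others 33.8 to 34.7), library 2 had 2.36 of Slc36a4 (others 0.425 to 0.672), library 3 had 2.07 of Slc7a12 (others 4.64 to 4.77) and library 4 had 0.838 of Slc7a4 (others 2.50 to 2.76). UUO early 3 had 10.2 of Slc36a1 (others 7.91 to 8.24). UUO late 4 had 7.48 of Slc36a1 (others 9.25 to 9.56) and 0.278 of Slc6a4 (others 0.544 to 0.576).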

How the results depend on the processing

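The number of members called in obstruction against sham kept within 1.5 times of the value in the report under every alternative run except the filter at 5 FPKM, which left fewer members to test and called 5, 5 and 6 higher in the vehicle, early and late comparisons. Leaving out 1 library at a time gave 12 to 14 higher and 13 to 15 lower with vehicle (13 and 15 with all), 13 to 14 and 12 to 13 early (13 and 12), and 14 and 11 to 13 late (14 and 13). Within surgeries, UUO early against UUO vehicle gave 0 to 1 higher, the 1 being Slc36a4 without UUO vehicle replicate 2. Sham late against sham vehicle gave 0 to 1 lower, and 0 under the filter at 5 FPKM, both other scalings, the compared groups alone, the replicate block and transcript sums. Every other count was 0 throughout.

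Directions of differences called before or after turned under median-of-ratios scaling for Slc38a7 (-0.032, -0.067 and -0.067), Slc7a6os (-0.025 with vehicle and -0.077 early), Slc3a2 late (-0.58) and Slc6a6 late (-0.36), as the scaling centres the typical gene near 0. Uncalled differences also turned for Slc3a2 and Slc6a20a with vehicle, Slc6a6 with vehicle and early, Slc36a4 late and Slc7a4 early. Of the differences called in the main fit, those of Slc6a19 with vehicle (1.66) and early (0.48) turned with transcript sums and were not called there. The late call of Slc6a19 was lost as well (-1.11, adjusted p = 0.286), and the cause was not tested. With the replicate block, 14 members were higher and 15 lower with vehicle, 13 and 13 early and 15 and 13 late. Deviations of same-numbered libraries correlated at -0.10 to 0.06, 0.01 to 0.05 and -0.02 to 0.05 in these comparisons, and in UUO early against UUO late at 0.04 to 0.44, with 3 of 4 best with their own number, a hint from the data that fell short of every pair being over 0.1. In no comparison did all 4 do so. The fit of the compared groups alone gave 13 and 13, 13 and 14, and 15 and 16. Without a filter 15 and 16, 18 and 13, and 17 and 13 were called.

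FPKM carries no counting error, so precision at low levels is known only from the spread between libraries, and 4 libraries a group limit what a comparison within a surgery can call.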
